A study of Mus musculus with 6 samples.

Results

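The 32 genes described here encode the enzymes that carry pyruvate into the mitochondrion, oxidize it and turn the tricarboxylic acid (TCA) cycle, with the kinases and phosphatases that switch pyruvate dehydrogenase off and on, the enzymes of the malate-aspartate shuttle and the malic enzymes. They were found on the array through the transcript accession of each probe, which was matched to the gene symbols in a mouse gene annotation. All 32 were measured, among 25005 genes and transcripts tested. Quadriceps RNA came from 6 male mice, 3 in the exercise group and 3 in the sedentary group, with 1 array per mouse. Every mouse, sedentary or exercised, carried the AR97Q transgene, a human androgen receptor gene with an expanded CAG repeat, on a C57BL/6J background, which makes it a model of SBMA (spinal and bulbar muscular atrophy). The exercise group ran on a forced running wheel at 5 m/min for 60 min per day on 5 days per week, for 4 weeks from 5 weeks of age. Both groups were sampled at 9 weeks of age, and the sedentary group did not run. No array of a wild-type mouse was part of the series.

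In a working muscle, pyruvate made by glycolysis either becomes lactate in the cytosol or enters the mitochondrion through the pyruvate carrier. There the pyruvate dehydrogenase complex converts it to acetyl-CoA, which citrate synthase joins to oxaloacetate in the first step of the TCA cycle, and the cycle passes its electrons to the respiratory chain. The complex is switched off when a kinase phosphorylates it and on again when a phosphatase removes the phosphate, and citrate synthase is widely used as a marker of the mitochondrial content of muscle and of its adaptation to endurance exercise.

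The arrays were read with a single dye, so each value is the brightness of a spot, given here as log2 signal relative to the 75th percentile of its own array. Exercise arrays had that percentile at 251 to 257 and sedentary arrays at 310 to 384, and well above background were 54.6% to 59.9% of an array's probes. The array of sedentary mouse 1 lay on the slide in the same strip as those of all exercised mice, and sedentary mice 2 and 3 were in the other strip. Signal differs between probes for reasons other than RNA level, so the values of a probe are compared between arrays and not with those of another probe. The number of arrays, 3 per group, limits the precision of every value. The probe used for each of the 32 genes was well above background on all 6 arrays, and none was saturated.

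Relative to the rest of the array, most genes of the pathway were brighter in the exercise group: 29 of the 32 log2 fold changes were positive at the 75th percentile scaling, 24 under quantile normalization, 13 without scaling and 10 with spike-in scaling. The test called 16 genes higher in the exercise group and 0 lower at an adjusted p under 0.05 (limma, Benjamini-Hochberg over everything tested), whereas 11.5% of everything tested was called higher and 6.12% lower. The 16 were Cs, Idh3a, Idh3b, Idh3g, Sucla2, Suclg1, Mdh2, Dlat, Pdhx, Pdk2, Pdp1, Pdp2, Mpc1, Mpc2, Got1 and Me1. At an unadjusted p under 0.05, 24 of the 32 passed, beside 9249 of all 25005 tested. None reached the study's definition of a differentially expressed gene (DEG), which also asks for a log2 fold change of 1 or more in size, a definition met by 1.72% of everything tested in the direction of exercise.

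The log2 fold changes differed between genes and all were under 1 in size. They ran from -0.55 for Pdk3 to 0.86 for Pdp1, and their median was 0.38, beside 0.026 for everything tested. In 25 genes the lowest exercised mouse exceeded the highest sedentary mouse, a pattern seen in 25.0% of everything tested. In 1 gene, Pdk1, the order was the opposite, a pattern seen in 18.2% of everything tested, and in 6 the groups overlapped. Brightness goes with direction on these arrays: 29 of the 32 genes lay among the brightest 25.0% of everything tested, and there 22.4% was called higher and the median log2 fold change was 0.15. The part of brightness in the result was not tested.

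The direction depended on how the arrays were brought to 1 scale. The median of the 32 log2 fold change was 0.46 when the array median was subtracted, -0.10 without scaling and -0.17 when the arrays were scaled on 8 spike-in probes, and the median of everything tested moved with it, to 0.11, -0.45 and -0.52. These scalings move every gene of an array by 1 factor, so the gap of 0.35 between the medians, with 29 of the 32 genes above the median of everything tested, is the same in each by construction. Quantile normalization and normexp background correction can change the gap. Under quantile normalization it was 0.14, with 26 of the 32 genes above the median of everything tested, and with normexp it was 0.20, with 28 above. Quantile normalization left 5 genes past the threshold, namely Idh3a, Sucla2, Mpc2, Pdp1 and Me1, while 7.46% of everything tested was called higher.

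Which arrays were included decided the calls. The median of the 32 genes, taken relative to the mean of each gene over the 6 arrays, was 0.23, 0.18 and 0.22 on the exercise arrays and -0.11, -0.26 and -0.25 on the sedentary arrays. Sedentary mouse 1 was the sedentary mouse nearest to the exercise group, its array lay in the strip of the exercise arrays, and it was the highest of the sedentary mice in 22 of the 32 genes. Without it, 16 genes were called higher, 15 of them the same, and 2, Pdk3 and Me2, lower. Without any 1 of the other arrays 0 were called, although the median stayed between 0.34 and 0.39. Between 19 and 23 of the 32 still had an unadjusted p under 0.05, beside between 6686 and 8146 of all 25005. The loss of calls was not particular to these genes, since the same fits called 0 higher and at most 1 lower among all 25005. Without sedentary mouse 1 the fit called 13.9% higher and 8.24% lower. With the strip as a block 0 were called, the median was 0.30 and 29 of the 32 values were above 0. Among all 25005 this fit called 0 higher and 3 lower. An unadjusted p under 0.05 was found for 14 of the 32, beside 4827 of all 25005. Since the other strip held sedentary mice only, the log2 fold changes with the strip as a block are those of the exercised mice against sedentary mouse 1 alone. The calls and p-values of that fit rest on a difference from this 1 sedentary array. Strip and mouse cannot be told apart for the sedentary group.

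**Figure D1:**
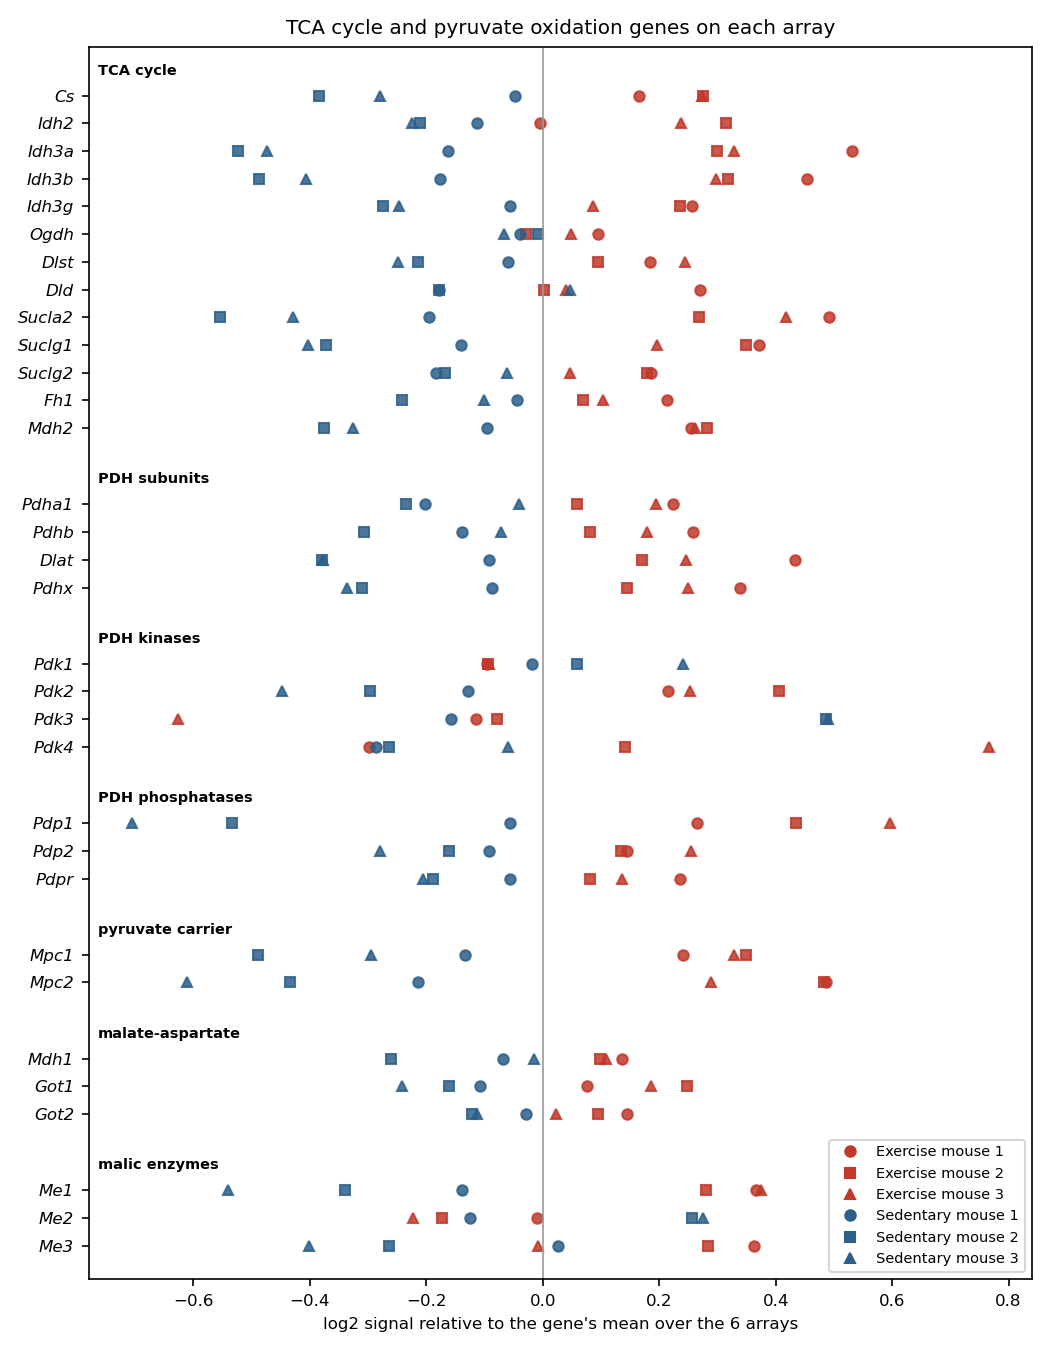
Log2 signal of each gene on each of the 6 arrays, as the difference from the mean of that gene, at the 75th percentile scaling; red marks are exercise mice, blue marks are sedentary mice, and the shape gives the mouse. Red marks lie to the right of all blue marks in 25 of the 32 rows, and the circles of sedentary mouse 1 are the rightmost blue marks in 22 rows.

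Upstream sequence was taken from RefSeq (GRCm38.p6) for the 250 bases before annotated transcript starts, and 29 of the 32 genes matched, with 38 windows; Idh3a, Me2 and Pdp1 had no entry. A gene counted as holding a motif if any of its windows did, and windows of alternative starts, as for Idh2, Ogdh and Mpc1, can lie inside the gene. Letters were searched on both strands, and no match of 1 motif overlapped a match of another. The GC box GGGCGG, to which the transcription factor Sp1 binds, was found in 19 of the 29 genes (65.5%) and in 35.4% of all 27025 genes with a sequence. The median GC content of the windows was 60.8% for the 29 genes and 52.4% for all genes. The cAMP response element TGACGTCA lay upstream of Mdh2, Ogdh and Pdpr (10.3%, beside 1.77% of all genes). The site of NRF-1, a regulator of nuclear genes for mitochondrial proteins, lay upstream of Sucla2 alone (3.45%, beside 4.23%), the ETS letters CCGGAAG upstream of Idh3g and Mpc1 (6.90%, beside 7.83%), and the half-site AAGGTCA of oestrogen-related receptors upstream of Got1 (3.45%, beside 4.70%). The FoxO letters GTAAACA and the full androgen receptor site were found in 0 of the 29 genes, beside 3.54% and 0.0111% of all genes. These are matches of letters in a window and say nothing of binding. The 150 bases next to the start are shown for 5 genes that recur below, with the matched motif in capitals: Cs, the marker gene, and Mpc2, the gene of the carrier with the larger change, both with a GC box on each strand; Sucla2 with its NRF-1 site; Mdh2 with its cAMP response element; and Pdk4, whose stretch holds no GC box and whose values differed between the exercised mice.
Cs (chr10:128337577-128337726, plus strand): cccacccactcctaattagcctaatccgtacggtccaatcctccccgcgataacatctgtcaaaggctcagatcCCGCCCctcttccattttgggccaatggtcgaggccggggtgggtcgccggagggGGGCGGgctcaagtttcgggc
Mpc2 (chr1:165461110-165461259, plus strand): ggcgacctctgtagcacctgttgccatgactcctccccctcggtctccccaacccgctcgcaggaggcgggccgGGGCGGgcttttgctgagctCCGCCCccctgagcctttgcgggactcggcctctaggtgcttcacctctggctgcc
Sucla2 (chr14:73552636-73552785, plus strand): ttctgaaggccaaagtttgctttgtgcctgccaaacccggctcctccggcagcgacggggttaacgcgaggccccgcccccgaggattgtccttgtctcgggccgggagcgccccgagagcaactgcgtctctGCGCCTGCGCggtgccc
Mdh2 (chr5:135778499-135778648, plus strand): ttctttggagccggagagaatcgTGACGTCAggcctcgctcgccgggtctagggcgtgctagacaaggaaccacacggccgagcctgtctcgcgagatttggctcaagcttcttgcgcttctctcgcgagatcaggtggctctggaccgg
Pdk4 (chr6:5496279-5496428, minus strand): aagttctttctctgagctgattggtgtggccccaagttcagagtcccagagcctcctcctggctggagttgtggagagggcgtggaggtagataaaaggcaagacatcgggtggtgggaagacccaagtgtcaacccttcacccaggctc

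Of the 13 enzymes of the TCA cycle itself, 7 rose, 0 fell and 6 did not pass the test, and the median log2 fold change was 0.39. All 13 values were positive at the 75th percentile scaling, and 10, 6 and 4 were positive under quantile normalization, without scaling and with spike-in scaling. All 13 lay above the median of everything tested in each of these but quantile normalization, where 12 did. Citrate synthase (Cs) had a log2 signal of 8.03, 8.14 and 8.14 in the exercise group and of 7.82, 7.48 and 7.59 in the sedentary group. Exercised and sedentary mice were separate, and sedentary mouse 1 lay nearest to the exercised mice. The log2 fold change of Cs was 0.48 ± 0.11 (SE), which is 1.39-fold, with an adjusted p of 0.0383 and a 95% confidence interval from 0.20 to 0.75. A second Cs probe gave 0.40. The value was 0.030 under quantile normalization, 0.0025 without scaling and -0.074 with spike-in scaling, and 0.29 against sedentary mouse 1 alone.

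Isocitrate dehydrogenase has an NAD-dependent form of 3 kinds of subunit, which belongs to the cycle, and an NADP-dependent mitochondrial form, Idh2. The catalytic subunit gene Idh3a read 6.39, 6.15 and 6.18 in exercised mice and 5.69, 5.33 and 5.38 in sedentary mice. Idh3b, a further subunit, read 6.86, 6.73 and 6.70 against 6.23, 5.92 and 6.0. In both genes every exercised mouse lay above every sedentary mouse, and the rise was 0.77 ± 0.13 for Idh3a (adjusted p = 0.0239) and 0.71 ± 0.11 for Idh3b (adjusted p = 0.0234), or 1.71-fold and 1.64-fold. The third subunit gene, Idh3g, rose by 0.39 ± 0.10 (adjusted p = 0.0483), and Idh2 had a value of 0.37 ± 0.11 (adjusted p = 0.0673). The difference Idh2 minus Idh3a within an array, which no single scaling factor can alter, was lower on each exercise array than on any sedentary array, by 0.41 on average.

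Succinyl-CoA synthetase pairs a shared alpha subunit, Suclg1, with the beta subunit Sucla2, which makes ATP, or Suclg2, which makes GTP, in the step of the cycle that forms a nucleotide triphosphate directly. Sucla2 had a log2 signal of 5.23, 5.0 and 5.15 with exercise and 4.54, 4.18 and 4.31 without. For Suclg1 the values were 6.29, 6.27 and 6.11 with exercise and 5.78, 5.54 and 5.51 without. Neither gene had overlapping groups. Sucla2 rose by 0.78 ± 0.12 (1.72-fold, adjusted p = 0.0234), the largest change among the TCA cycle enzymes, and Suclg1 by 0.61 ± 0.11 (1.53-fold, adjusted p = 0.0243). Suclg2 did not pass, at 0.28 ± 0.09 (adjusted p = 0.0746). Within an array, Sucla2 minus Suclg2 was 0.51 higher in the exercise group, without overlap between groups.

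Mitochondrial malate dehydrogenase (Mdh2), which regenerates oxaloacetate in the last step of the cycle, read 9.17, 9.19 and 9.17 in the exercise group, with almost no spread. It read 8.82, 8.54 and 8.59 in the sedentary group. No sedentary mouse reached the lowest exercised mouse, and the rise was 0.53 ± 0.10 (1.45-fold, adjusted p = 0.0264). Under quantile normalization the same gene had a log2 fold change of -0.000162. Ogdh, the first subunit of the 2-oxoglutarate dehydrogenase complex, the cycle's counterpart of pyruvate dehydrogenase, had a value of 0.076 ± 0.080 (adjusted p = 0.52) with overlapping groups, and of -0.22 under quantile normalization and -0.40 without scaling, where it was called lower. The second subunit Dlst was just outside the threshold at 0.35 ± 0.09 (adjusted p = 0.0508). Dld, the subunit that both complexes share, had 0.21 ± 0.12 (adjusted p = 0.243). Fumarase (Fh1) had 0.26 ± 0.09 (adjusted p = 0.103).

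**Figure D2:**
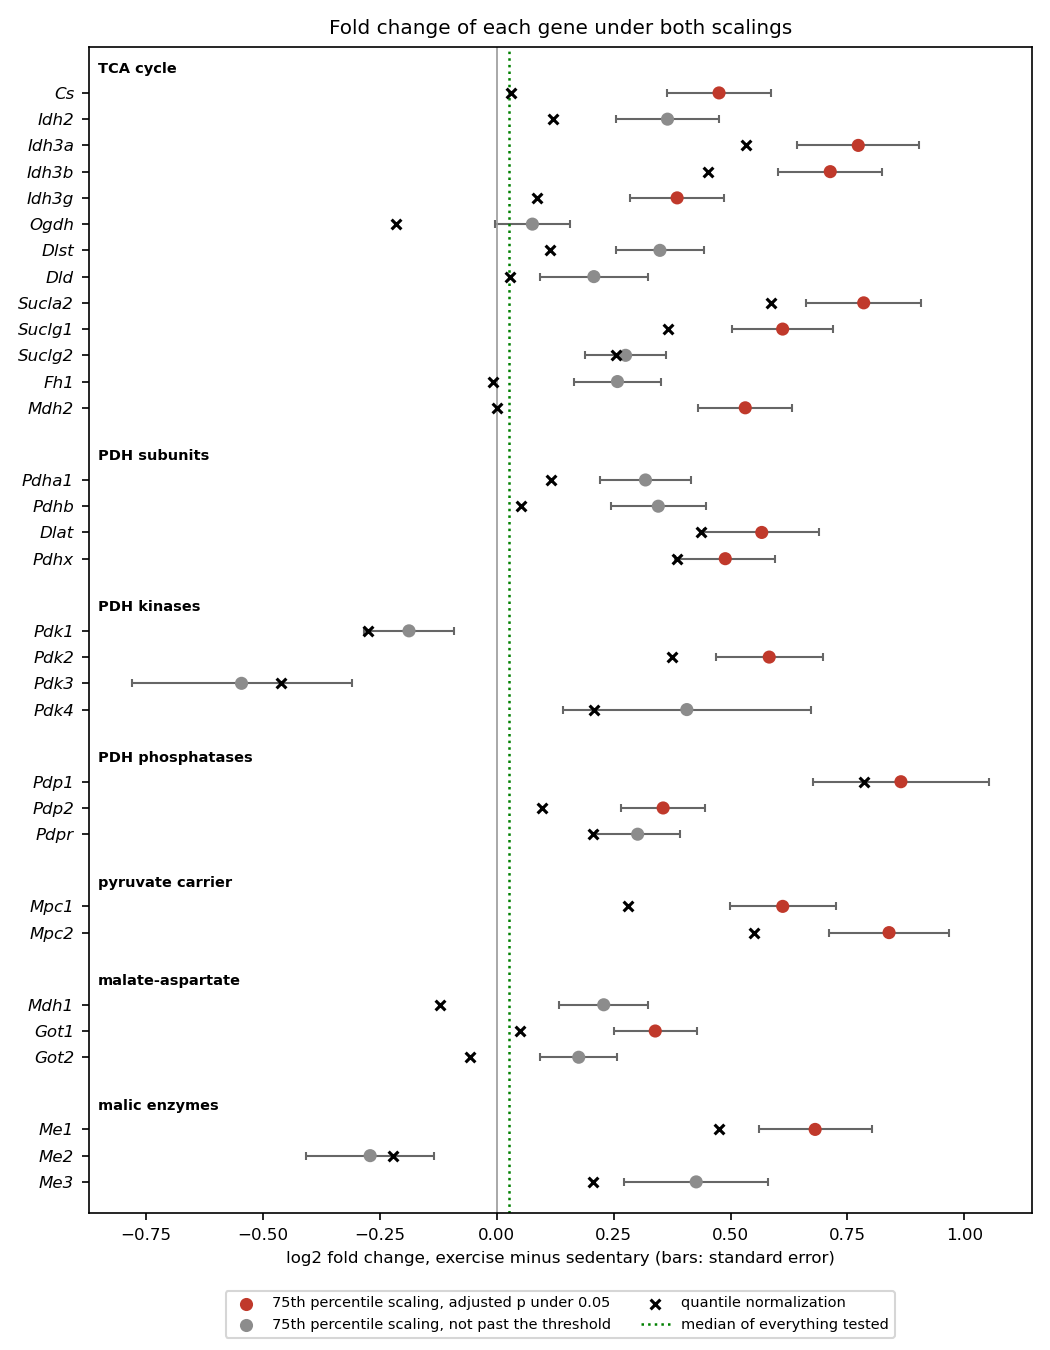
Log2 fold change of each gene, exercise minus sedentary, with its standard error at the 75th percentile scaling (red where the adjusted p was under 0.05, grey where it was not) and the value under quantile normalization (crosses); the dotted line is the median of everything tested, 0.026. Of the 32 points, 29 lie right of 0 at the first scaling and 24 of the crosses do, and without scaling or with spike-in scaling 13 and 10 values were positive.

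Both genes of the mitochondrial pyruvate carrier rose, and their values stayed positive under every scaling tried. Mpc1 and Mpc2 encode the proteins that together form the channel for pyruvate in the inner membrane. The log2 signal of Mpc2 was 7.17, 7.17 and 6.97 in exercised mice and 6.47, 6.25 and 6.07 in sedentary mice. That of Mpc1 was 7.57, 7.68 and 7.66 in exercised mice and 7.19, 6.84 and 7.03 in sedentary mice. The groups were separate for both. The change was 0.84 ± 0.13 for Mpc2 (1.79-fold, adjusted p = 0.0234) and 0.61 ± 0.11 for Mpc1 (1.53-fold, adjusted p = 0.0254), and the other Mpc1 probes gave 0.58 and 0.38. Under quantile normalization Mpc2 had 0.55 and Mpc1 0.28, and without scaling 0.37 and 0.14. The difference between the 2 genes within an array overlapped between groups, at -0.23 ± 0.24 (SD of the difference) for Mpc1 minus Mpc2.

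All 4 subunit genes of pyruvate dehydrogenase had separate groups, and 2 of them rose. The same 4 values were positive under quantile normalization, and 2 and 1 of them without scaling and with spike-in scaling. Dlat, the acetyltransferase that forms the core, read 3.73, 3.47 and 3.54 with exercise and 3.20, 2.92 and 2.92 without. The lowest exercised mouse stood above the highest sedentary mouse, which was mouse 1. Its change was 0.57 ± 0.12 (1.48-fold, adjusted p = 0.0326), and a second probe gave 0.24. Pdhx, which tethers Dld to that core, rose by 0.49 ± 0.11 (adjusted p = 0.0329). The genes of the decarboxylating subunit, Pdha1 and Pdhb, had 0.32 ± 0.10 (adjusted p = 0.068) and 0.35 ± 0.10 (adjusted p = 0.0627), and their difference within an array hardly moved (-0.027 ± 0.074, SD of the difference, exact permutation p = 0.6).

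The 4 kinases that switch the complex off did not move together. Pdk2, a kinase found in most tissues, had a log2 signal of 5.13, 5.32 and 5.17 in the exercise group and 4.78, 4.62 and 4.46 in the sedentary group. These groups were separate, and Pdk2 rose by 0.58 ± 0.11 (1.5-fold, adjusted p = 0.0272). Its value was 0.37 under quantile normalization, 0.11 without scaling and 0.034 with spike-in scaling. For Pdk1, the kinase gene known as a target of hypoxia signalling, the values were 2.31, 2.31 and 2.32 with exercise and 2.39, 2.47 and 2.65 without. Every exercised mouse lay below every sedentary mouse, but the log2 fold change of -0.19 ± 0.10 did not pass (adjusted p = 0.206). The 3 other Pdk1 probes gave -0.12, -0.49 and 0.23, so the probes differed in sign.

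Pdk3 was dim, at -2.85, -2.82 and -3.36 in the exercise group and -2.89, -2.25 and -2.25 in the sedentary group. Exercise mouse 3 was the lowest, and sedentary mouse 1 lay among the exercised mice. The log2 fold change was -0.55 ± 0.24 (adjusted p = 0.149), and it was -0.047 with normexp and -0.12 with the strip as a block. It was called lower without sedentary mouse 1 (-0.76), without scaling (-1.02), with spike-in scaling (-1.10) and with array weights (-0.68). Pdk4, the kinase that rises in muscle with fasting and fat oxidation, read 4.41, 4.85 and 5.48 with exercise and 4.42, 4.45 and 4.65 without. Exercise mouse 3 was far above the rest, exercise mouse 1 was the lowest of all 6, and the value of 0.41 ± 0.26 did not pass (adjusted p = 0.308). It was 0.12 without exercise mouse 3 and 0.66 without exercise mouse 1. The summed signal of 7 adipocyte markers was also highest on the array of exercise mouse 3, at 9.29 on the log2 scale, against 7.90 and 8.36 in the other exercised mice and 8.72 to 9.09 in sedentary mice. The summed signal of 6 slow-twitch markers had the same order as Pdk4 among the exercised mice, at 5.31, 5.79 and 6.80 for mice 1, 2 and 3. In sedentary mice that sum was 6.82 to 7.09. The part of the adipocyte and slow-twitch differences in the Pdk4 values was not tested, and they cannot be told apart here. Within an array, Pdk1 minus Pdk2 was 0.77 lower in the exercise group, with no overlap, whereas Pdk4 minus Pdk2 overlapped (-0.18 ± 0.60, SD of the difference).

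The phosphatases that switch the complex on again had positive values under quantile normalization as well as at the 75th percentile scaling, and 1 of the 3 values was positive without scaling and with spike-in scaling. Pdp1, the calcium-stimulated phosphatase, read 2.76, 2.93 and 3.09 in exercised mice and 2.44, 1.96 and 1.79 in sedentary mice. Sedentary mouse 1 lay between the other sedentary mice and the exercised mice. The rise of 0.86 ± 0.19 (1.82-fold, adjusted p = 0.0329) was the largest among the 32 genes, and it was 0.49 against sedentary mouse 1 alone. A second Pdp1 probe gave 0.74. Pdp2, the second catalytic form, rose by 0.36 ± 0.09 (adjusted p = 0.0449) on the probe used, but its other probe gave -0.063. The regulatory subunit gene Pdpr had 0.30 ± 0.09 (adjusted p = 0.0655). Pdp1 minus Pdp2 within an array was 0.51 higher in the exercise group, without overlap.

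**Figure D3:**
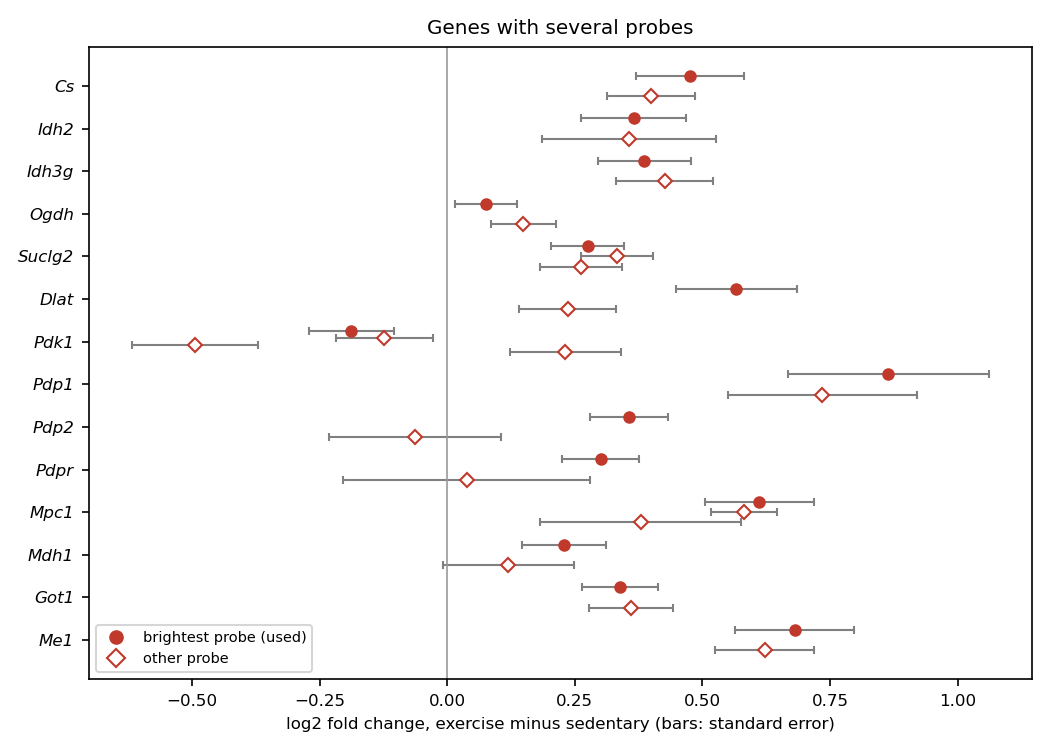
Log2 fold change, exercise minus sedentary, of every probe kept for the 14 genes with more than 1, with its standard error from a fit over all probes; filled circles are the brightest probe, which stands for the gene, and open diamonds are the others. The probes of 12 genes had the same sign, and those of Pdk1 and Pdp2 did not.

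The malate-aspartate shuttle carries the electrons of cytosolic NADH into the mitochondrion. Cytosolic malate dehydrogenase (Mdh1) and the cytosolic and mitochondrial aspartate aminotransferases (Got1 and Got2) had separate groups at the 75th percentile scaling, with positive values, but 1 of the 3 was positive under quantile normalization and 0 without scaling or with spike-in scaling. Got1 rose by 0.34 ± 0.09 (adjusted p = 0.0486), while Mdh1 had 0.23 ± 0.09 (adjusted p = 0.137) and Got2 0.18 ± 0.08 (adjusted p = 0.175). Mdh1 minus Mdh2, the cytosolic against the mitochondrial malate dehydrogenase, was 0.30 lower on the exercise arrays, with no overlap (exact permutation p = 0.1), and under quantile normalization 0.12 lower with overlap.

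The malic enzymes convert malate to pyruvate. Me1, the cytosolic form that supplies NADPH, read 5.27, 5.19 and 5.28 with exercise and 4.77, 4.57 and 4.37 without. The groups did not overlap, and the rise was 0.68 ± 0.12 (1.60-fold, adjusted p = 0.0243). It remained 0.48 under quantile normalization and 0.13 with spike-in scaling. The mitochondrial form Me3 had 0.43 ± 0.15 (adjusted p = 0.102) with overlapping groups. Me2, the NAD-dependent mitochondrial form, read -1.06, -1.22 and -1.27 in the exercise group and -1.18, -0.79 and -0.78 in the sedentary group. Sedentary mouse 1 again lay among the exercised mice, and the value was -0.27 ± 0.14 (adjusted p = 0.206).

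Differences between related genes were taken on each array for 10 pairs, and for 6 of them the exercise and sedentary arrays did not overlap. How often other pairs of genes separate in this way was not counted. Among single genes, 25.0% of everything tested had all exercise arrays above all sedentary arrays, and 18.2% had them below. With 3 arrays against 3 an exact permutation test cannot go below p = 0.1, which these 6 reached, and adjusted over the 10 pairs the value was 0.167. None therefore passed the threshold. The 6 pairs without overlap were Pdk1 and Pdk2, Pdp1 and Pdp2, Sucla2 and Suclg2, Mdh1 and Mdh2, Me1 and Me3, and Idh2 and Idh3a. Of these, Mdh1 minus Mdh2 and Sucla2 minus Suclg2 overlapped between groups under quantile normalization. Got1 minus Got2 overlapped between groups, at 0.16 ± 0.14 (SD of the difference, exact permutation p = 0.2).

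**Figure D4:**
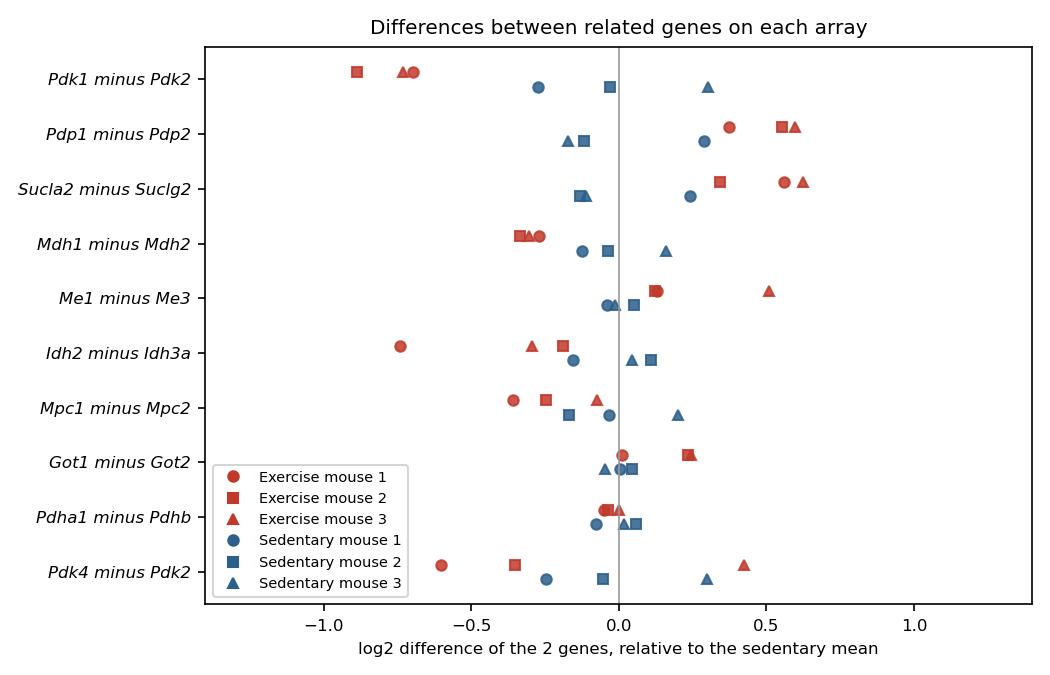
Difference in log2 signal between the genes of each of 10 pairs on each array, relative to the mean of the 3 sedentary arrays; red marks are exercise mice and blue marks sedentary mice. In 6 of the 10 rows the red and blue marks do not overlap, a share not counted for other pairs of genes, and Pdk1 minus Pdk2 has the widest mean difference, -0.77.

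Neighbouring genes of the pathway, 27 in all of which 26 were tested, had a median log2 fold change of 0.19, with 8 called higher and 1 lower. Of everything tested 11.5% was called higher and 6.12% lower, and the median was 0.026. Among the brightest 25.0% of everything tested, where 18 of the 26 lay, 22.4% was called higher and 1.71% lower, and the median was 0.15. The part of brightness in these counts was not tested. The gene Ogdhl did not pass the filter on dim probes. The largest rise was that of Slc16a3, the transporter through which glycolytic fibres export lactate: it read 6.27, 6.26 and 6.44 with exercise and 5.26, 4.48 and 4.24 without. Sedentary mouse 1 lay between the other sedentary mice and the exercise group, and the change of 1.66 ± 0.26 (adjusted p = 0.0234) made it the only DEG among the 26. Lactate dehydrogenase A (Ldha) rose by 0.76 ± 0.16 (adjusted p = 0.029), and Oxct1, which activates ketone bodies in mitochondria, by 0.61 ± 0.15 (adjusted p = 0.0407).

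Of the 4 genes of succinate dehydrogenase, the TCA cycle enzyme that is also complex II of the respiratory chain, Sdhb rose by 0.59 ± 0.08 (adjusted p = 0.0234) and Sdhc by 0.53 ± 0.10 (adjusted p = 0.0258). Sdhd rose too, by 0.40 ± 0.10 (adjusted p = 0.0394), while Sdha had 0.16 (adjusted p = 0.215). Lipt2, which works in the attachment of lipoic acid to Dlat and Dlst, rose by 0.50 ± 0.10 (adjusted p = 0.0274). The mitochondrial carrier genes Slc25a11, for 2-oxoglutarate and malate, and Slc25a10, for dicarboxylates, went opposite ways: Slc25a11 rose by 0.41 ± 0.08 (adjusted p = 0.026), and Slc25a10 fell by 0.73 on the log2 scale (adjusted p = 0.0365). Without scaling and with spike-in scaling, 1 of the 26 was called higher and 10 and 11 lower, beside 45.1% and 45.8% of everything tested called lower. Leaving out any 1 array other than that of sedentary mouse 1 left 0 of the 26 called, in fits that called 0 higher and at most 1 lower among everything tested.

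The tissue was muscle by its markers, and muscle fibre markers were brighter relative to the 75th percentile in the exercise group. Of 9 skeletal muscle fibre markers 6 were called higher and 0 lower, and the log2 of their summed signal was 12.04 to 12.24 in exercised mice and 11.07 to 11.56 in sedentary mice. All 8 fast-twitch markers, of which Myh4 and Tnnt3 were also in the fibre list, were called higher (summed signal 12.3 to 12.5 against 11.1 to 11.8). Of 6 slow-twitch markers 0 were called higher and 2 lower (5.31 to 6.80 against 6.82 to 7.09). Sedentary mouse 1 had the highest summed fibre and fast-twitch signal of the sedentary mice, as it had the highest median of the 32 genes. This was not particular to fibre markers. Its slow-twitch, macrophage, red blood cell, fibroblast, Schwann cell and endothelium sums were also the highest of the sedentary mice. Its adipocyte, smooth muscle and satellite cell sums were not. In whole muscle, fewer cells of a type and less RNA per cell cannot be told apart, and the part of fibre content and fibre type in the values of the 32 genes was not tested.

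The other cell types gave between 0 and 2 calls each. Of 7 adipocyte markers 1 (Lep) was called higher and 0 lower. Lep was the only 1 of the 7 with a positive value, and their median log2 fold change was -0.78. The summed adipocyte signal overlapped (7.90 to 9.29 in exercised mice against 8.72 to 9.09 in sedentary mice). Macrophage, fibroblast, endothelium and red blood cell markers had 0 calls in either direction, among 6, 5, 5 and 4 tested. The red blood cell sum was 7.97 to 8.46 in exercised mice and 7.23 to 8.32 in sedentary mice. Of 5 Schwann cell markers 1 was called lower, of 5 smooth muscle markers 2, and of 3 satellite cell markers 1. The smooth muscle sum was 5.94 to 5.96 in exercised mice and 6.02 to 6.33 in sedentary mice, without overlap. That of the satellite cell markers was 0.85 to 1.07 against 1.33 to 1.36, also without overlap. The Schwann cell sum overlapped slightly (3.84 to 4.320 against 4.317 to 4.71). None of the Schwann or satellite cell log2 fold changes was positive, and 1 of the smooth muscle markers had a positive value.

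**Figure D5:**
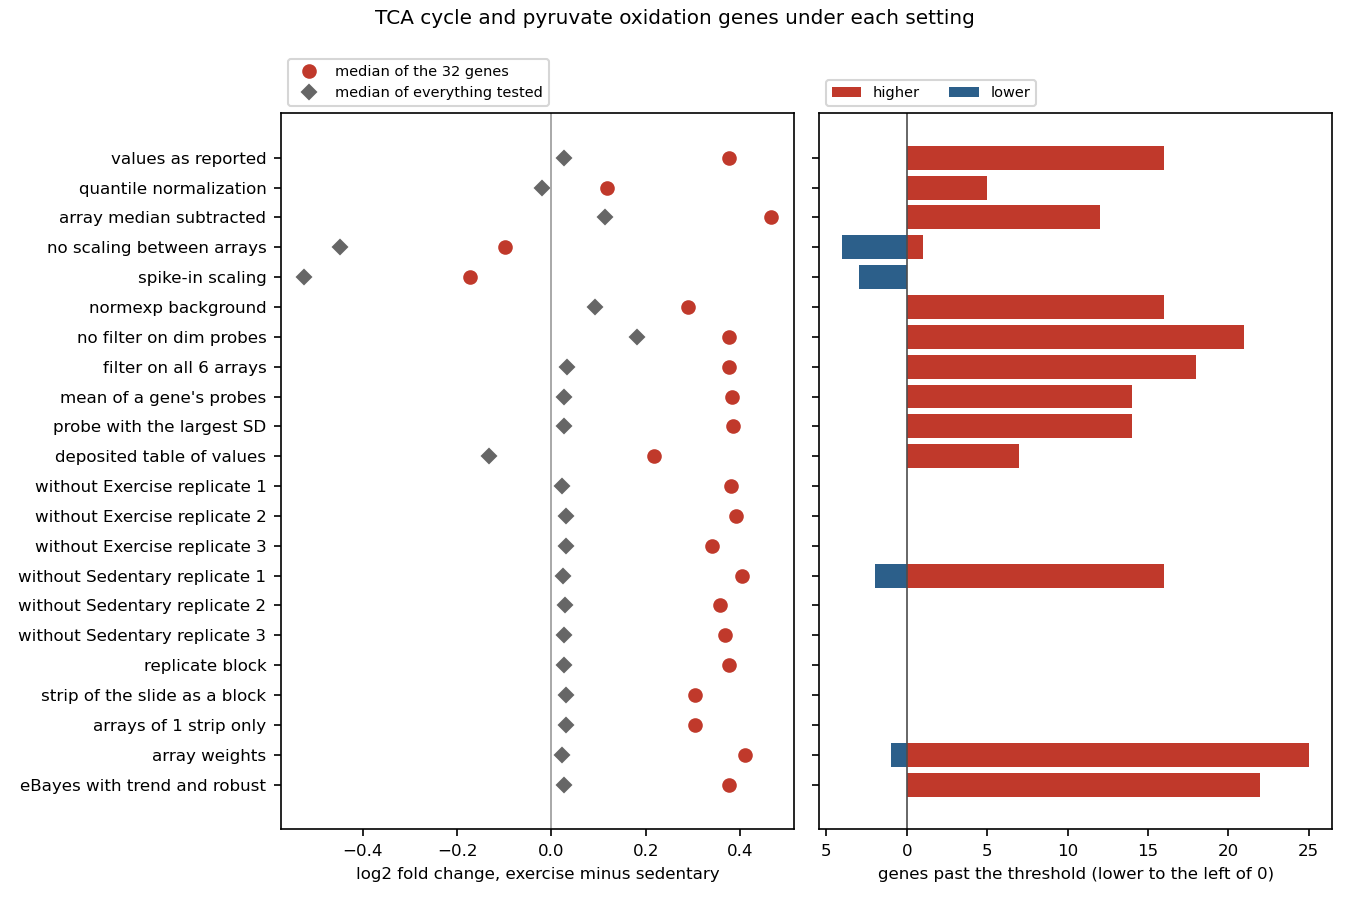
Left, the median log2 fold change of the 32 genes (red circles) and of everything tested (grey diamonds) under each way of processing the values; right, the number of the 32 genes past the threshold, higher to the right of 0 and lower to the left. The red circles lie 0.35 right of the diamonds at the 75th percentile, array median, unscaled and spike-in settings, by construction the same, and 0.14 right of them under quantile normalization, while the count of genes called higher runs from 0 to 25.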

How the data were processed

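Quadriceps RNA of 6 male AR97Q mice was labelled with Cy3 and hybridized by the authors to Agilent SurePrint G3 mouse arrays, 1 per mouse, on 1 slide. RNA integrity numbers were between 8.4 and 9.2. Images were quantified by the authors in Feature Extraction 12.1.0.3, and they deposited, per spot, a processed signal, which is a background-subtracted linear intensity. They also deposited a table of intensity values in which the processed signal of each array is multiplied by 1 factor, between 1.33 and 1.88, which was used as an alternative. The study's methods name iDEP and a threshold (FDR under 0.05 with a log2 fold change of 1 or more in size) but no scaling between arrays. Samples were grouped by their titles.

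Here, control spots (3671 of 62976 per array) and spots flagged as outliers were removed first. The remaining processed signals were converted to log2, averaged per probe and centred on the 75th percentile of their array. Of 56605 probes, 22 lacked a value on some array and were removed. A probe was kept if 3 or more arrays had it well above background. Names came from a match of transcript accessions to RefSeq annotation of GRCm38.p6 (34566 probes matched), used for names only. Pdk1 is also an older name of another kinase gene, Pdpk1, whose probes were not used. The probe with the highest mean stood for a gene. Of 51 probes of the 32 genes, 50 were kept.

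The exercise and sedentary groups were tested against each other on the log2 scale with R 4.3.3 and limma 3.58.1, using a two-sided lmFit and eBayes fit without covariates and Benjamini-Hochberg adjustment over the 25005 genes and transcripts, and the script was tested on simulated data. Differences between 2 genes within an array were compared with a two-sided exact permutation test. The labels do not tie a mouse to a litter or cage, and p-values measure the spread between these 6 mice only. The 32 genes, the neighbouring genes, the marker lists, the pairs and the motifs were chosen with earlier results of these data known. All 32 genes are named. Array values are given for Cs, for genes past the threshold with a log2 fold change of 0.5 or more in size, for the 3 lowest and for Pdk4, and neighbouring genes are named where they passed the threshold, at most 6 in each direction. Sdhd, Sdha, Slc25a11 and the untested Ogdhl were named beside them after their values were seen.

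The alternatives tried were no scaling, centring on the array median, quantile normalization, scaling on 8 spike-in probes, normexp background correction (offset 50), the filter on dim probes dropped or extended to all 6 arrays, a gene's probes averaged or represented by the most variable, the deposited table, each array left out, replicate number or slide strip as a block, the arrays of 1 strip, array weights, and a robust eBayes fit with a trend.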

Additional observations from a re-analysis of the deposited data

How the results depend on the processing

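Of the 32 genes, 16 were called higher and 0 lower as reported, against 5 and 0 under quantile normalization, 1 and 4 without scaling, 0 and 3 with spike-in scaling, 7 and 0 in the deposited table, 25 and 1 with array weights, and 0 higher when a log2 fold change of 1 or more was also asked. Of everything tested, 11.5% was called higher and 6.12% lower as reported, against 7.46% and 5.45%, 2.47% and 45.1%, 1.42% and 45.8%, 4.68% and 12.8%, and 20.5% and 14.5% in the first 5 of these alternatives. The fits without 1 array other than sedentary mouse 1, with the strip or the replicate number as a block or with 1 strip called 0 higher and at most 3 lower among everything tested. Leaving out 1 array gave between 0 and 16 higher and between 0 and 2 lower. The strip as a block, or the arrays of 1 strip, left 0 called. Of the 26 neighbouring genes, 8 were called higher and 1 lower, against 2 and 0 under quantile normalization, 1 and 10 without scaling, 1 and 11 with spike-in scaling, 4 and 2 in the deposited table, 13 and 3 with array weights, and 0 in either direction with the strip as a block or 1 strip. The count lower was 0 with the array median subtracted and 2 with normexp, no filter, the probe with the largest SD, or trend and robust, and leaving out 1 array gave between 0 and 9 higher and 0 lower. With the replicate number as a block, 0 of the 32 and 0 of the 26 were called, and Cs had 0.48 (adjusted p = 0.0906). In that fit 23 of the 32 had an unadjusted p under 0.05, beside 8591 of all 25005 tested. The correlations of the deviations of mice with the same number were 0.015, 0.085 and 0.036. The labels do not say whether the numbers pair the mice, and these correlations, taken over all genes at once, cannot exclude it.

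The median log2 fold change of the 32 genes, 0.38, was 0.12 under quantile normalization, 0.46 with the array median subtracted, -0.10 without scaling, -0.17 with spike-in scaling, 0.29 with normexp, 0.22 in the deposited table and 0.30 with the strip as a block or 1 strip, and between 0.34 and 0.40 without 1 array. That of Cs, 0.48, was 0.030, 0.56, 0.0025, -0.074 and 0.32 under quantile normalization, array median, no scaling, spike-in scaling and the deposited table, 0.29 with the strip as a block or 1 strip, and between 0.40 and 0.57 without 1 array. Under quantile normalization the sign turned for Ogdh -0.22, Fh1 -0.0085, Mdh2 -0.00016, Mdh1 -0.12 and Got2 -0.058. Without scaling it turned for Idh2 -0.11, Idh3g -0.087, Ogdh -0.40, Dlst -0.12, Dld -0.27, Suclg2 -0.20, Fh1 -0.21, Pdha1 -0.15, Pdhb -0.13, Pdk4 -0.066, Pdp2 -0.12, Pdpr -0.17, Mdh1 -0.24, Got1 -0.13, Got2 -0.30 and Me3 -0.046. With spike-in scaling it turned for Cs -0.074, Idh2 -0.18, Idh3g -0.16, Ogdh -0.47, Dlst -0.20, Dld -0.34, Suclg2 -0.27, Fh1 -0.29, Mdh2 -0.018, Pdha1 -0.23, Pdhb -0.20, Pdhx -0.060, Pdk4 -0.14, Pdp2 -0.19, Pdpr -0.25, Mdh1 -0.32, Got1 -0.21, Got2 -0.37 and Me3 -0.12. Ogdh turned to -0.082 in the deposited table and -0.023 with normexp. Of the within-array differences, Pdha1 minus Pdhb turned to 0.064 under quantile normalization and lay between -0.065 and 0.0021 without 1 array, and Pdk4 minus Pdk2 lay between -0.48 and 0.036 without 1 array. Mdh1 minus Mdh2 moved from -0.30 to -0.12 and Sucla2 minus Suclg2 from 0.51 to 0.33 under quantile normalization, where both overlapped between groups. Me1 minus Me3 fell from 0.25 to 0.13 without exercise mouse 3, and Idh2 minus Idh3a was -0.24 instead of -0.41 without exercise mouse 1. Leaving out the scaling or scaling on spike-in probes changes 1 factor per array, which by construction moves every gene alike. Which signs turned depended on the size of that move, and the signs as reported rest on 1 factor per array as well. The cause of the move, and of the other changes, was not tested. With the strip as a block or the arrays of 1 strip, the difference from the exercised mice rests on sedentary mouse 1. With the arrays of 1 strip, this lone sedentary array is assumed to vary like the others. The probes used for the 32 genes were well above background on all 6 arrays, which does not show that background was without effect. With normexp, Pdk3 went from -0.55 to -0.047 and Me2 from -0.27 to -0.13. The part of background in the values was not tested.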
